A study of Mus musculus with 6 samples.

Results

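The synaptonemal complex is the protein zipper that holds homologous chromosomes together along their length during the first meiotic prophase. The 9 genes described here encode its components and the HORMA-domain proteins of the chromosome axis. They are *Sycp2*, *Sycp3*, *Hormad1* and *Hormad2*, which act on the axis of each chromosome, *Sycp1*, which encodes the transverse filament, and *Syce1*, *Syce2*, *Syce3* and *Tex12*, which encode proteins of the central element. They were chosen by name, not by their values, though with earlier results of these data known. The 9 were among the 53657 gene names counted in each library. The question was how far genes of meiotic chromosomes were already transcribed in spermatogonia, the mitotic cells from which meiosis later starts, and whether an activating *Hras* mutation went with another level.

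RNA came from tdTomato+ undifferentiated spermatogonia (Aundiff) with bright surface MCAM, a population enriched in spermatogonial stem cells, sorted from the testes of adult mice 3 months after tamoxifen. Mice of the WT group (n = 3) carried *Gfra1*-creERT2 and a Cre-dependent tdTomato reporter and had wild type *Hras*. Mice of the MUT group (n = 3) carried these same 2 alleles and 1 copy of the FR-*Hras* allele, from which Cre activates the G12V form of HRAS, a RAS protein held in its active state, at its own locus. Both groups received repeated tamoxifen. The creERT2 is driven by *Gfra1*, the GDNF co-receptor gene of the most primitive Aundiff. Only cells in which it was active, and their descendants, were labelled, and tdTomato marks recombination of the reporter, not of *Hras* itself. From variant calls in the RNA reads, the paper reports that most of the sorted MUT cells carried the G12V form. Each library is 1 sorted sample, and the labels give no source beyond a separate sample for each replicate number. p-values therefore measure the spread between these samples.

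In the mouse, the axis is laid down first, when cohesin complexes, SYCP2 and SYCP3 condense along the sister chromatids. HORMAD1 and HORMAD2 bind to axes that have not yet paired and leave them as they synapse. SYCP1 dimers then bridge the axes of homologs, and SYCE1, SYCE2, SYCE3 and TEX12 stabilise the bridge at its midline. In somatic cells and in early germ cells many of these genes are held back by a repressor complex (PRC1.6) that contains MGA, MAX, PCGF6, L3MBTL2 and E2F6, and their transcription rises when retinoic acid induces *Stra8* and its partner *Meiosin*.

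All 9 genes were transcribed in all 6 libraries. Levels between genes are given as transcripts-per-million (TPM), that is, counts divided by the length of the gene's exons and scaled to the same sum in each library. Each of the 9 genes was above 10 TPM in every library, where 19.3% of all counted names were, and 52.7% of the 19656 genes with enough counts to be tested. The median tested gene lay at 14.6 TPM. The 9 genes together took from 0.0730% to 0.105% of the counts of a library. The lowest single value was 382 counts, for *Syce3* in WT replicate 1, so none of these levels was near the limit of detection, which 3 counts would put at 0.127 to 0.131 counts-per-million (CPM). In bulk RNA a low share of cells with much transcript and a high share of cells with little cannot be told apart, so these levels are averages over the sorted cells.

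Of the axis genes, *Sycp3*, which encodes the main structural protein of the axial and lateral elements, was at 194, 224 and 297 TPM in the 3 WT libraries and at 245, 230.2 and 241 TPM in the 3 MUT libraries. WT replicate 1 was the lowest and WT replicate 3 the highest, with the MUT libraries between them. The gene lies on chromosome 10 (chr10:88459569-88473236, plus strand, GRCm38), and 660 of its 1264 exonic bases, 52.2%, are also covered on the other strand by exons of *Chpt1*, a phospholipid synthesis gene. Counting took no account of strand and left out fragments that fit both genes, so the level of *Sycp3* is uncertain. Taken over the 604 bases not shared, it would be 499 ± 71.3 TPM (SD, n = 6) in place of 238 ± 34.1 TPM. None of the exonic bases of the other 8 genes is overlapped in this way.

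*Sycp2* (chr2:178345293-178407685, minus strand), whose product binds SYCP3 in the axis, was at 117, 133 and 151 TPM in WT and at 134, 143 and 150 TPM in MUT. *Hormad1* (chr3:95559677-95587671, plus strand), needed for break formation and for the check on unsynapsed axes, was at 95.8, 104 and 154 TPM in WT and at 121, 117 and 109.6 TPM in MUT. For both genes the WT libraries spanned the whole MUT range. *Hormad2* (chr11:4345814-4441105, minus strand), which works in the same check, was at 24.3, 26.5 and 31.2 TPM in WT and at 25.9, 25.7 and 31.3 TPM in MUT, the lowest level of the 9 genes in each library.

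*Sycp1* (chr3:102818499-102936100, minus strand), the only transverse filament gene of the complex, was at 212, 229 and 262 TPM in WT and at 237, 247 and 231 TPM in MUT. It had the least relative spread of the 9 genes, with a coefficient of variation of 7.2% over the 6 libraries. Over all exonic bases its level lay beside that of the axis gene *Sycp3*. It lay below the 499 ± 71.3 TPM (SD, n = 6) of *Sycp3* over the bases not shared with *Chpt1*.

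Among the central element genes, *Syce1* (chr7:140777229-140787852, minus strand), whose product binds the end of SYCP1, was at 214, 261 and 281 TPM in WT and at 248, 262 and 276 TPM in MUT. *Syce2* (chr8:84872111-84888221, plus strand) was at 215, 236 and 260.2 TPM in WT and at 239, 264 and 245 TPM in MUT. *Tex12* (chr9:50556819-50561325, minus strand), whose product assembles with SYCE2 into fibres, was at 78.9, 85.7 and 111 TPM in WT and at 93.9, 99.8 and 94.3 TPM in MUT. Although their proteins form 1 assembly, *Tex12* stood below *Syce2* in each of the 6 libraries. *Syce3* (chr15:89390174-89410503, minus strand), which encodes the smallest of these proteins and helps SYCP1 to assemble, was at 114, 124 and 168 TPM in WT and at 126, 134 and 127 TPM in MUT.

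**Figure D1:**
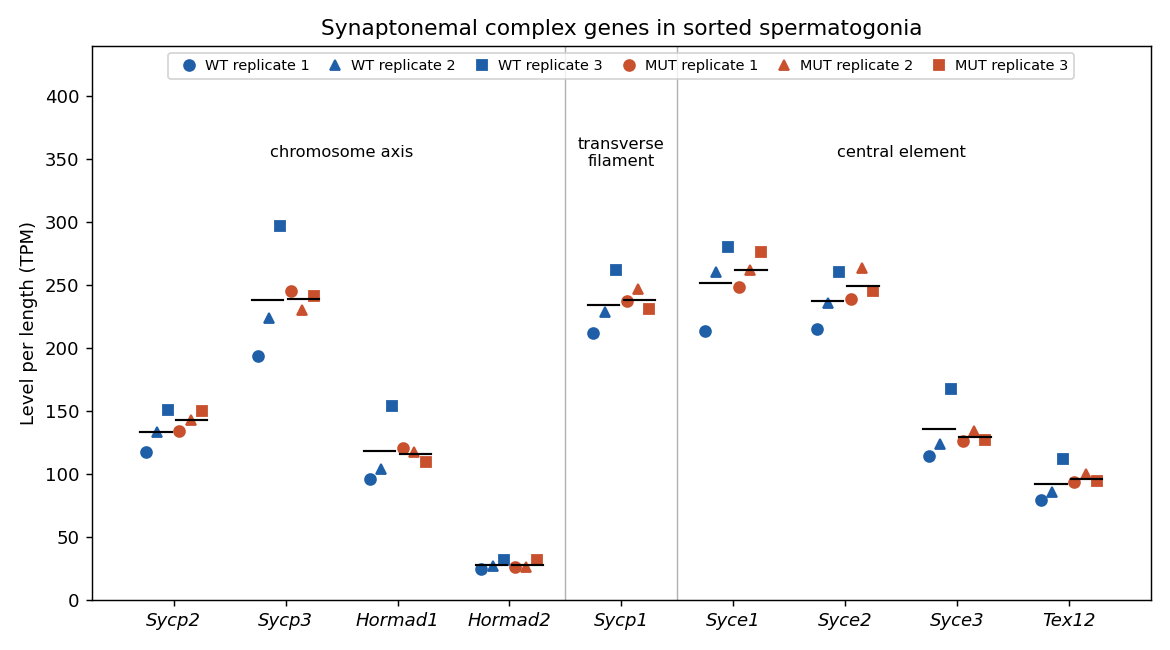
Level of each gene in TPM (vertical axis, linear from 0) in the 6 libraries, by the part of the complex its product belongs to. Blue symbols are WT and orange symbols MUT libraries, with the shape giving the replicate number, and horizontal bars are group means (n = 3). *Hormad2* lies near 27.5 TPM and the other 8 genes between 78.9 and 297 TPM, and for each gene the WT and MUT symbols overlap.

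Ordered by mean level, *Syce1* stood at 257 ± 24.1 TPM (SD, n = 6), *Syce2* at 243 ± 17.6, *Sycp3* at 238 ± 34.1 and *Sycp1* at 236 ± 17.0 TPM. Each of these 4 genes was above 96.9% or more of the tested genes. Neighbours among them did not differ beyond their spread, with p = 0.125, 0.531 and 0.938 (exact two-sided sign-flip permutation test on log2 TPM within libraries, n = 6). Comparisons with *Sycp3* used all its exonic bases, those shared with *Chpt1* included, so they hold for that length only. *Sycp2* followed at 138 ± 12.7 TPM and *Syce3* at 132 ± 18.5 TPM, also not separated (exact permutation p = 0.281). *Hormad1* at 117 ± 20.3, *Tex12* at 94.0 ± 11.3 and *Hormad2* at 27.5 ± 3.0 TPM came last, and *Hormad2* was above 62.6% of the tested genes.

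In 6 of 6 libraries these steps of the order held, namely *Sycp1* over *Sycp2* by 0.78, *Syce3* over *Hormad1* by 0.18, *Hormad1* over *Tex12* by 0.31 and *Tex12* over *Hormad2* by 1.77 on the log2 TPM scale. Each had an exact permutation p = 0.03125, the smallest that 6 libraries can give. The adjusted p was 0.0625 over the 8 neighbouring pairs, so 0 of 8 passed 0.05 after adjustment. A step of any size stays above 0.05 here unless most pairs reach the smallest p. The adjusted test therefore cannot decide whether these levels differ, and the pairs were formed from the order of the same levels. The top of the order depends on how length is counted. With the longest coding transcript *Syce2* came first, and with the bases of *Sycp3* that no other gene shares *Sycp3* did, both settings added after the values were seen. *Hormad2* stayed last in each setting tried.

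The promoters of these genes can be read beside these levels. They are shown because the repressor complex and the STRA8-MEIOSIN pair named above are both known to act at promoters of meiotic genes, and no binding was measured here. Windows from 250 bases before to 50 after the start site were taken from RefSeq on GRCm38.p6, with 1 window for each of 27025 genes and for all 9 members. Capitals mark the letters TCCCGC (the core of E2F sites), CACGTG (the E-box of MAX dimers) and CNCCTCAG (a motif described for STRA8-MEIOSIN), searched on both strands, so that the reverse complements GCGGGA and CTGAGGNG are in capitals too. The 4 windows that hold both the E2F core and the E-box are printed, 5′ to 3′ on the strand of the gene.
*Sycp3*, chr10:88459337-88459636 (+ strand): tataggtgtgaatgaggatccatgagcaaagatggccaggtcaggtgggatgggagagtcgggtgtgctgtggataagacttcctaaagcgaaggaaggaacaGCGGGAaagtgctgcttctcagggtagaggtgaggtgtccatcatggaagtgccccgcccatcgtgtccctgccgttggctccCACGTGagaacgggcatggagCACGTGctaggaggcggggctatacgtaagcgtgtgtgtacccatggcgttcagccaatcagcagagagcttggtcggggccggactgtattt
*Hormad1*, chr3:95559427-95559726 (+ strand): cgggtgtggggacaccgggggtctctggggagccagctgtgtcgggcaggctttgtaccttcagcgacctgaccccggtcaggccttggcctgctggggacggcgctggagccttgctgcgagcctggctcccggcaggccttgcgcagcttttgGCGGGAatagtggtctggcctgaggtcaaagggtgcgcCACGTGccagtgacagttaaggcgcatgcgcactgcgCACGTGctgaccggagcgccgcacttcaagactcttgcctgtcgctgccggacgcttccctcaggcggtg
*Sycp1*, chr3:102936051-102936350 (- strand): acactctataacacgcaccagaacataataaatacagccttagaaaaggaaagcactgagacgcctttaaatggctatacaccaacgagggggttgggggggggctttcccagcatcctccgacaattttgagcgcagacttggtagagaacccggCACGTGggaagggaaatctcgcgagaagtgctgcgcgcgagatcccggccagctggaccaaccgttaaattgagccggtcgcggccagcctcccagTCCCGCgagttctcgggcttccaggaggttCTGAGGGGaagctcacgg
*Tex12*, chr9:50561219-50561518 (- strand): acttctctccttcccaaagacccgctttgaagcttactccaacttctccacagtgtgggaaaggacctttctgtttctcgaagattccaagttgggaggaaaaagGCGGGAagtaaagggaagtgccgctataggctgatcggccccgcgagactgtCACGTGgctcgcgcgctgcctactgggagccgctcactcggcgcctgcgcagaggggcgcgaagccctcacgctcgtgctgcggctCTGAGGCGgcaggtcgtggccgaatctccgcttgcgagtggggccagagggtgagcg

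Positions are those of a match's first base, counted from the RefSeq start site as 0. In the window of *Sycp3* the E2F core begins 147 bases before the start site and E-boxes begin 64 and 43 bases before it. *Hormad1* has the E2F core at -95 and E-boxes at -57 and -20. *Tex12* has the E2F core at -145, the E-box at -93 and the STRA8-MEIOSIN motif at -7. In *Sycp1* the E-box begins at -94, and the other 2 matches lie after the start site. In none of these windows do matches of different motifs overlap.

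Over all 9 genes the E2F core was found in 5 windows (*Sycp3*, *Hormad1*, *Sycp1*, *Tex12* and *Syce2*), against 20.0% of the windows of all genes. The E-box was found in 4, against 7.24%, and the STRA8-MEIOSIN motif in 3 (*Sycp1*, *Tex12* and *Hormad2*), against 7.97%. *Sycp2*, *Syce1* and *Syce3* held none of these letters in this window. The windows of the 9 genes had 54.7% to 67.3% G and C bases, above the median of 52.7% over all genes, and from 5 to 26 CpG dinucleotides, where the median gene had 7. RefSeq gives *Syce2* a second start, whose window (chr8:84872008-84872307) held all 3 motifs but was not used for these counts. These matches describe letters only. The genes with and without matches were not separated by level, since *Syce1* without a match and *Sycp1* with all 3 motifs were both near the top and *Hormad2* with 1 motif was lowest.

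The question of the series was what active HRAS does to Aundiff, and for these genes the test asked whether MUT libraries differed from WT libraries. None of the 9 genes passed the test. In the quasi-likelihood fit of edgeR, with p-values adjusted over 19656 genes by Benjamini and Hochberg's method, 0 of 9 passed an FDR of 0.1, where 0.0102% of the tested genes did, and each of the 9 had an adjusted p of 0.998. DESeq2 also called 0 of 9, and 0.0241% of all genes it fitted. Unadjusted p-values ran from 0.453 to 0.965, so 0 of 9 were below 0.05 in a fit in which 2.78% of genes were. For 9 of 9 genes the WT and MUT values overlapped, while for 7.69% of the tested genes they did not.

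The differences were small in size as well. For *Sycp2* the TMM-normalised level was 213.9 ± 31.4 CPM in WT and 226.8 ± 11.6 CPM in MUT (SD, n = 3 each), a log2 fold change of 0.084 ± 0.107 (SE). For *Sycp1* it was 223.4 ± 29.4 CPM in WT and 226.3 ± 8.1 CPM in MUT, a log2 fold change of 0.019 ± 0.098. The intervals of both genes reached no further than 0.33 on the log2 scale.

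*Sycp3* stood at 80.9 ± 20.1 CPM in WT and 80.6 ± 2.9 CPM in MUT, with a log2 fold change of -0.0069 ± 0.152 (SE). *Hormad1* had the widest standard error, with 54.9 ± 16.03 CPM in WT, 53.5 ± 2.9 CPM in MUT and a log2 fold change of -0.037 ± 0.175. *Syce3* had the lowest estimate, -0.077 ± 0.159, from 20.1 ± 4.7 CPM in WT and 19.1 ± 0.6 CPM in MUT. Estimates for *Hormad2*, *Syce1*, *Syce2* and *Tex12* lay between 0.0065 and 0.063. In all, 6 estimates were above and 3 below 0, with a median of 0.02, and the median over all tested genes was 0.0066.

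The 95% intervals tell which differences these libraries leave possible. The lowest bound of the 9 was -0.44, for *Hormad1* and *Syce3*, and the highest was 0.38, for *Tex12*. All 9 intervals lay within 0.5 of 0 on the log2 scale, as did those of 52.9% of the tested genes. *Syce2* was measured most closely, with an interval from -0.15 to 0.27.

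**Figure D2:**
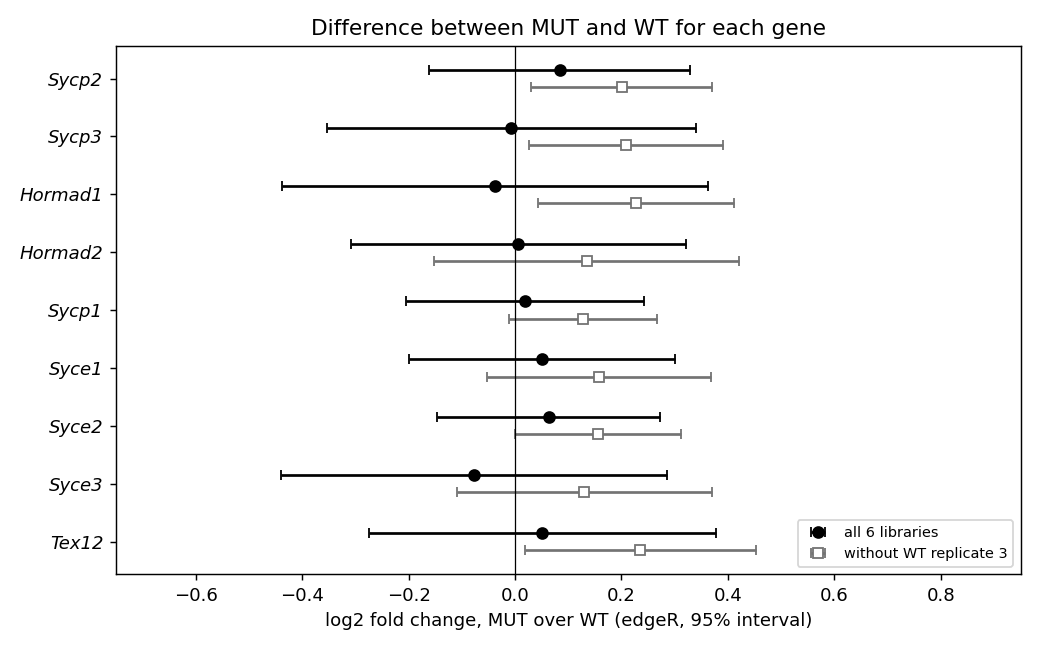
Difference between MUT and WT for each gene as a log2 fold change (horizontal axis), with the 95% interval from edgeR. Filled circles use all 6 libraries and open squares leave out WT replicate 3. The filled circles lie between -0.077 and 0.084 and their intervals all include 0, while the open squares all lie above 0.

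Within WT the 9 genes had the same extreme libraries. WT replicate 3 gave the highest CPM and WT replicate 1 the lowest for 9 of 9 genes. Of all tested genes, 26.7% were highest in WT replicate 3, 18.9% were lowest in WT replicate 1 and 7.73% were both. On the TPM scale 9 of 9 were again lowest in WT replicate 1, but 7 of 9 were highest in WT replicate 3, since *Hormad2* was highest in MUT replicate 3 and *Syce2* in MUT replicate 2.

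*Hormad1* differed most between these 2 WT libraries, with 1000 counts in WT replicate 1 and 1733 in WT replicate 3, which is 1.68 times as much in CPM. For *Sycp3* this ratio was 1.601, for *Syce3* 1.53 and for *Tex12* 1.47. It was 1.37 for *Syce1*, 1.34 for *Sycp2* and *Hormad2*, 1.29 for *Sycp1* and 1.26 for *Syce2*. Between the highest and the lowest MUT library the same genes differed by 1.06 to 1.22 times. The SD was larger in WT than in MUT for 9 of 9 genes and for 57.1% of the tested genes. The MUT libraries had no shared order, since *Sycp2* was highest in MUT replicate 3 at 238 CPM, *Sycp1* in MUT replicate 2 at 234 CPM and *Hormad1* in MUT replicate 1 at 56.1 CPM. As a sum over the 9 genes, the libraries held 741, 833 and 1013 CPM in WT and 869, 899 and 889 CPM in MUT.

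**Figure D3:**
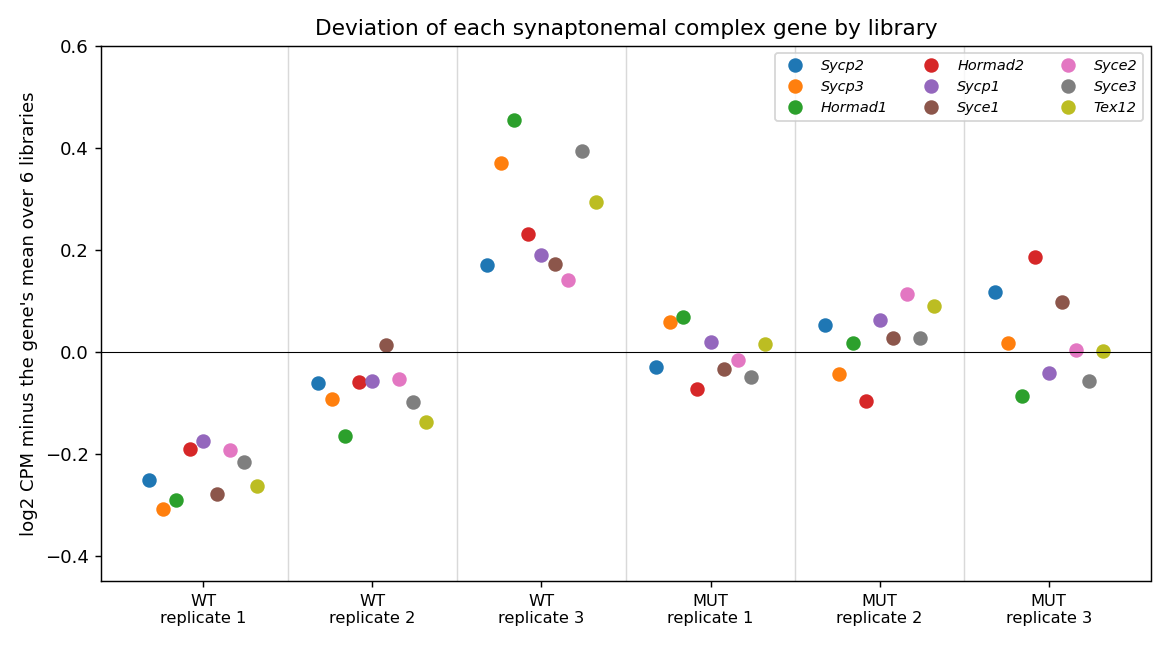
Log2 CPM of each gene in each library minus that gene's mean over the 6 libraries (vertical axis), with 1 coloured point per gene. All 9 points lie below 0 in WT replicate 1 and above 0 in WT replicate 3, and the points of the MUT libraries lie around 0.

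WT replicate 3 also stood apart over the whole transcriptome. Between WT replicate 3 and the other WT libraries the chi-square of the counts per degree of freedom was 18.2 and 24.5, against 4.26 to 9.99 for the other pairs within a group, and no pair agreed within sampling noise. Without WT replicate 3 the estimates of all 9 genes were above 0, from 0.13 to 0.24, as were 53.1% of genes in that fit. *Sycp2*, *Sycp3*, *Hormad1* and *Tex12* then had unadjusted p-values of 0.0265, 0.0304, 0.0220 and 0.0368, where 3.63% of genes were below 0.05, and an adjusted p of 0.999 by edgeR, so none passed an FDR of 0.1, as 0.0249% of genes did. Without WT replicate 1 all 9 estimates were below 0, from -0.20 to -0.020. The direction of the 9 differences thus turned with which WT library was left out.

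Within same-numbered pairs of libraries the differences ran in opposite directions. In pair 1 the MUT library was higher for 9 of 9 genes, in pair 2 for 8 of 9, with *Hormad2* at -0.04 on the log2 scale, and in pair 3 it was lower for 9 of 9. With the pair as a block 0 of 9 genes passed in edgeR, where 0.0661% of the tested genes did, and 0 of 9 in DESeq2, where 0.323% did.

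Markers of other cells were read for the same libraries. Genes of undifferentiated spermatogonia (10, led by *Mcam*, the gene of the sorted surface protein) summed to 1833 to 2242 CPM in WT. In MUT they summed to 2010 to 2327 CPM, and the lowest sum was in WT replicate 3. Gene by gene, 3 of the 10 were lowest in that library, as were 27.0% of the tested genes. There was no unsorted sample to show how far the sort enriched the 10 genes. For 6 genes of differentiating spermatogonia, led by the transcription factor gene *Sohlh1*, the sums were 913 to 1003 CPM in WT and 1024 to 1167 CPM in MUT. RNA of differentiation markers was thus present beside that of the 9 genes in every library. Each MUT sum of these markers lay above each WT sum, and 6 of 6 estimates were above 0. For 2 of 6 genes the groups did not overlap, higher in MUT, as for 4.69% of the tested genes. None of the 6 passed the FDR of 0.1, and a cause was not tested. Other marker lists read below leaned in 1 direction too. Estimates were below 0 for 8 of 8 spermatid, 6 of 6 macrophage and 7 of 8 tested pachytene genes. They were above 0 for 5 of 5 tested Leydig cell and 3 of 3 peritubular myoid genes. None of these genes passed the FDR of 0.1 with genotype as the only term. With the replicate block in edgeR 1 spermatid gene passed, as did 0.0661% of the tested genes.

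For 10 genes of pachytene spermatocytes, the cells in which the complex is complete, the sums were 344.5, 398 and 552.9 CPM in WT and 306.9, 341.4 and 518.7 CPM in MUT, and 7 of the 10 genes were highest in WT replicate 3. The most abundant was *Ldhc*, the germ cell lactate dehydrogenase, at 127 to 381 TPM. Of the 10 markers 6 were above 10 TPM in every library, while *Pou5f2* and *Hist1h1t* had 1 to 6 counts each, although a histone gene is a weak marker in polyadenylated RNA. Within MUT these sums were lowest in replicate 1 and highest in replicate 3. The 9 members, at 869, 899 and 889 CPM, were also lowest in MUT replicate 1 but highest in MUT replicate 2, and the 4 axis genes alone, at 373, 378 and 392 CPM, were highest in MUT replicate 3. For 8 spermatid genes, led by *Prm2*, a protamine gene, the sums were 1315, 991.4 and 1677 CPM in WT and 678.5, 717.4 and 1311 CPM in MUT. WT replicate 3 was highest for the spermatid sum and, in CPM, for all 9 members. WT replicate 1, the lowest library for all 9 members, had a spermatid sum of 1315 CPM, close to the 1311 CPM of MUT replicate 3. Per length the spermatid genes summed to 3698 to 8895 TPM over the 6 libraries. The 10 genes of undifferentiated spermatogonia summed to 1703 to 2160 TPM and the 9 members to 1265 to 1714 TPM.

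Macrophage genes (6, led by *Lyz2*) summed to 721.4 to 1197 CPM in WT and 642.2 to 803 CPM in MUT, and 6 of 6 were highest in WT replicate 3. Sertoli cell genes (8, led by *Clu*) summed to 58.4 to 145.3 CPM in WT and 86.8 to 122.8 CPM in MUT, with *Fshr* at 2 to 5 counts. Leydig cell genes (6, led by *Cyp17a1*) summed to 67.3 CPM in MUT replicate 3 and to 12.9 to 21.1 CPM in the other libraries. Of these genes 6 of 6 were highest in MUT replicate 3, as were 14.6% of the tested genes, and *Lhcgr* had 2 to 24 counts. Endothelial (4 genes, led by *Cdh5*) and peritubular myoid (3 genes, led by *Acta2*) markers summed to at most 44.5 CPM in any library. The part of other cells in the levels of the 9 genes and in the height of WT replicate 3 was not tested. The mutated gene itself, *Hras*, was at 60.7 ± 4.2 CPM in WT and 66.7 ± 5.0 CPM in MUT with overlapping libraries, and the counts do not tell the alleles apart.

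Other meiotic genes gave the surroundings of these 9. Of 33 genes that build, load or act on meiotic chromosome axes or start meiosis, 32 were found in the files and 31 were tested, and 31 were above 1 TPM in all 6 libraries. *Fkbp6*, a co-chaperone gene needed for synapsis, was highest at 959 TPM, followed by *Stra8* at 387 TPM and *Smc1b*, a meiotic cohesin gene, at 231 TPM. Lowest were *Msh4*, a crossover gene, at 8.0 TPM, *Spata22*, a partner of *Meiob* in strand repair, at 6.9 TPM, and *Sycp2l*, a paralog of *Sycp2* known from oocytes, at 0.55 TPM. *Sycp2l* had 7 to 15 counts in a library and was the 1 gene not tested, in contrast to *Sycp2* with 4221 to 5845 counts.

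In this list 0 of 31 genes passed the FDR in MUT against WT, 19 estimates were above and 12 below 0, and the median was 0.04. WT and MUT values did not overlap for 2 of 31 genes, both higher in MUT, where 4.69% of the tested genes were. *Stra8*, which the rule on names included and whose product starts the meiotic programme, was at 158.99, 172.99 and 174.6 CPM in WT and at 184.6, 242.5 and 186.8 CPM in MUT. Its log2 fold change was 0.28 ± 0.111 (SE) with an unadjusted p of 0.0361 and an adjusted p of 0.998 by edgeR, so it did not pass. *Stag3*, a meiotic cohesin gene, was at 308.3 ± 4.2 CPM in WT and 327.2 ± 12.2 CPM in MUT (SD, n = 3 each), a log2 fold change of 0.09 ± 0.067.

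Movement with WT replicate 3 was uneven in this list. It was the highest library for 9 of 31 genes, compared with 9 of 9 synaptonemal complex genes and 26.7% of the tested genes. MUT replicate 2 was the highest for 15 of 31, where 16.1% of the tested genes and none of the 9 were, and WT replicate 1 was the lowest for 19 of 31, where 18.9% of the tested genes were. *Meiob*, which encodes a single-strand DNA binding protein of meiotic recombination, had 80 counts in WT replicate 1 and 402 in WT replicate 3, a ratio of 4.86 in CPM. For *Prdm9*, which sets the sites of breaks, the ratio was 1.99, and for *Dmc1*, the meiotic recombinase, it was 1.69. *Stra8* and *Stag3* had ratios of 1.10 and 1.02, below that of each synaptonemal complex gene. *Meiob*, *Prdm9* and *Dmc1* were named after their values were seen.

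**Figure D4:**
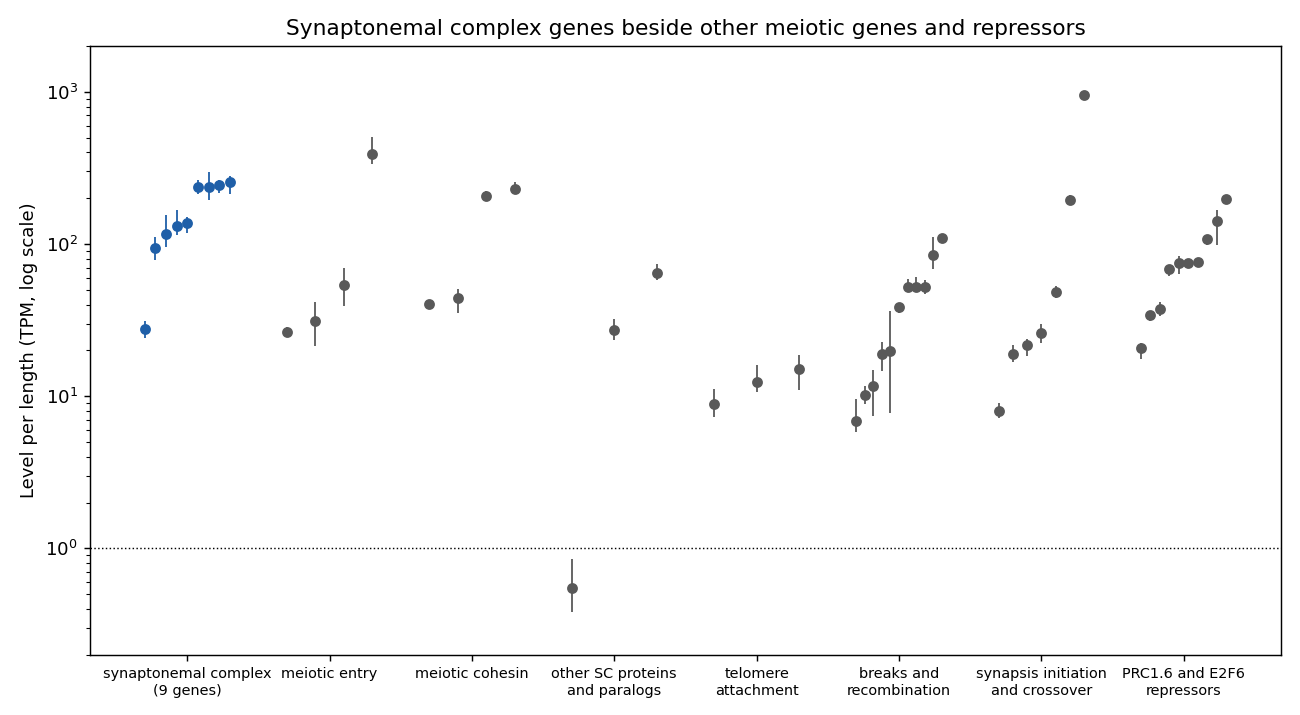
Mean level over 6 libraries in TPM (log axis), with bars from the lowest to the highest library. Shown are the 9 synaptonemal complex genes, the other meiotic genes grouped by role, and the PRC1.6 and E2F6 repressor genes. The 9 genes lie between 27.5 and 257 TPM, within the range set by *Sycp2l* at 0.55 TPM and *Fkbp6* at 959 TPM.

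The repressor genes were transcribed in the same libraries. All 10 genes of PRC1.6 and E2F6 were tested, with mean levels from 20.8 TPM for *Ring1* to 197 TPM for *Tfdp1*, the E2F partner gene. *Mga* at 141 and *Pcgf6* at 107.5 TPM came next to *Tfdp1*, and *Cbx3* at 34.0 and *Rybp* at 37.2 TPM next to *Ring1*. None of them passed the FDR in MUT against WT, 0 of 10 had an unadjusted p below 0.05, and 8 estimates were above and 2 below 0. *Mga*, which encodes the scaffold of the complex, was at 168, 144 and 98.2 TPM in WT and at 152, 144 and 143 TPM in MUT. It was lowest in WT replicate 3, with a ratio of 0.61 to WT replicate 1 in CPM. In that library the 9 synaptonemal complex genes were highest in CPM. WT replicate 3 was the lowest library in CPM for 3 of the 10 repressor genes, and for 27.0% of the tested genes. The library values of *Mga* were singled out after they were seen, and whether its level bears on that of the 9 genes was not tested.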

How the data were processed

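RNA of sorted tdTomato+ MCAM-bright cells from 3 WT and 3 MUT mice was sequenced after poly(A) selection with a stranded kit. For each sample the authors deposited 1 table of fragment counts, not normalised, with a row for each gene name. Per the file headers they came from featureCounts 1.6.2 on GENCODE vM17 with paired fragments and no strand option, so antisense overlaps are left out or mixed. The submitters' processing notes name STAR and GRCm38.p6, and the version of STAR is not given in the sources used here. No replicates were pooled and no value was normalised before deposit. Groups and replicate numbers come from the sample titles.

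CPM with TMM factors, TPM from the exon length of each gene in the files, and all fold changes were computed here. In R 4.3.3, edgeR 4.0.16 (filterByExpr, quasi-likelihood test, genotype as the only term, FDR 0.1) was fitted on the whole table and tested on simulated data. Neighbours in level were compared on log2(TPM + 0.1). Alternatives were DESeq2 1.42.0, limma 3.58.1 with voom, other size factors, filters and thresholds, the replicate block and each library left out. Deviations from the group mean correlated between same-numbered samples (0.31, 0.17 and 0.39 over 10583 genes above 10 CPM). Correlations between unlike numbers are not given here. The study used littermate controls, but the labels do not say whether equal numbers mark littermates. Overlaps and transcripts were read from GENCODE vM21 (build GRCm38), which also gave the names of 5 genes listed under clone names, and promoter windows from RefSeq. *Spo16* was not analysed here.

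The members and lists were chosen with earlier results of these data known. The genes named by rule are the 9 members, *Hras* and *Stra8*. Of the meiotic and repressor lists the rule adds genes with an adjusted p under 0.1 or with non-overlapping groups and the 3 highest and 3 lowest in TPM, and of the marker lists the gene highest in TPM and markers near 0. Libraries held 22729292 to 23550433 counts, and limits from 3 counts cover counting error only, since duplicates could not be told from separate molecules.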

Additional observations from a re-analysis of the deposited data

How the results depend on the processing

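None of the 9 genes passed the threshold in any alternative, and all 9 stayed above 1 TPM. Over all genes 2 passed the FDR of 0.1. This count was 9 with DESeq2, 4 with voom, 5 without a filter, 0 with at least 10 counts in every sample (479 at an unadjusted p below 0.05 by edgeR), 1 at an FDR of 0.05, 13 with the replicate block in edgeR and 55 with the replicate block in DESeq2, and from 0 to 6 with 1 library left out. The replicate block changed no call for the 9 genes.

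Estimates near 0 changed sign in places, and the cause was not tested. *Sycp3* was at 0.021 with voom, 0.019 with the block in edgeR and 0.021 with the block in DESeq2, *Hormad1* at 0.00077 with the block in DESeq2, and *Hormad2* at -0.0053 with at least 10 counts in every sample. With 1 library left out the estimates ranged from -0.02 to 0.20 for *Sycp2*, -0.15 to 0.21 for *Sycp3*, -0.19 to 0.23 for *Hormad1*, -0.090 to 0.13 for *Hormad2*, -0.067 to 0.13 for *Sycp1*, -0.072 to 0.16 for *Syce1*, -0.020 to 0.16 for *Syce2*, -0.20 to 0.13 for *Syce3* and -0.067 to 0.24 for *Tex12*. The lowest value came without WT replicate 1 and the highest without WT replicate 3.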
